A study of Rattus norvegicus with 24 samples.

Results

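The core circadian clock genes were followed in the tibialis anterior muscle of rats through 30 days of daily resistance training. They were taken as the 10 genes Arntl, Clock, Npas2, Per1, Per2, Per3, Cry1, Cry2, Nr1d1 and Nr1d2, whose transcripts were summed by gene symbol. These are 10 of the 15273 gene symbols in the deposited transcript table, and all 10 passed the filter on low values that left 11196 genes for testing. RNA came from 24 muscles of 12 adult male Wistar rats, 3 rats for each of 2, 10, 20 and 30 days. In every rat the left limb was trained by an implanted pulse generator that stimulated the nerve, and the right tibialis anterior served as the unstimulated contralateral muscle. The rats carried no genetic change, all of them received the implant, and training took place once a day in the first hours of the light phase, with muscles collected 1 h after the last bout. The contralateral muscle is therefore a control from a trained animal, not from an untreated one. Each trained muscle was set against the other muscle of its own animal, so that both muscles of a pair shared the animal's time of day. Each animal was sampled once, and no exact clock time is given for single muscles in the sources used here. A shift in the phase of the rhythm and a change in its level therefore cannot be told apart.

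The clock is a feedback loop of transcription that runs in almost every cell. BMAL1, the protein of Arntl, pairs with CLOCK or NPAS2 and switches on the Period, Cryptochrome and Rev-erb genes through E-box elements, and the PER and CRY proteins then shut that activity down. REV-ERB alpha and beta, encoded by Nr1d1 and Nr1d2, form a second arm: they repress Arntl through elements they share with the ROR activators. In skeletal muscle the loop times metabolic gene expression, and muscle contraction is one of the cues known to set it.

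The promoters of 9 of the 10 members were found in RefSeq (build GRCr8, Arntl under its newer symbol Bmal1), as windows of 300 bases from 250 before to 50 after a transcript start. Clock and Nr1d1 had more than one start, which made 11 windows. They were searched on both strands for 5 elements by their letters: the E-box CACGTG, the E'-box CACGTT, the D-box TTATGNAA, the RORE core TAGGTCA and the CRE TGACGTCA. The windows that held a match are shown so that each element can be seen in its place beside the genes that the results turn on, with matches in capitals on the strand of the gene.
Arntl, chr1:176766078-176766377, plus strand: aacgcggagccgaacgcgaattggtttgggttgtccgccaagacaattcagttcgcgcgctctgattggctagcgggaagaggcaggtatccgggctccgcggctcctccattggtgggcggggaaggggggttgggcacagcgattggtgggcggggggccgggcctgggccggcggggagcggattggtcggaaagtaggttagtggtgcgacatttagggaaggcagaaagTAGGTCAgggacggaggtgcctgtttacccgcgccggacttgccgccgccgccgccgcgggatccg
Per2, chr9:99496944-99497243, minus strand: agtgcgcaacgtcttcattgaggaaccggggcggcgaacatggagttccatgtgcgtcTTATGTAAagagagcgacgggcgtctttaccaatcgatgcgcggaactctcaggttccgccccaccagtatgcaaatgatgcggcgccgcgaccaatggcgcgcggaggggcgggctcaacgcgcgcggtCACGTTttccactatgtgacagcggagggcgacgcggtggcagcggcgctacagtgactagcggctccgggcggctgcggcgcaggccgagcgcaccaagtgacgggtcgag
Cry2, chr3:98860388-98860687, minus strand: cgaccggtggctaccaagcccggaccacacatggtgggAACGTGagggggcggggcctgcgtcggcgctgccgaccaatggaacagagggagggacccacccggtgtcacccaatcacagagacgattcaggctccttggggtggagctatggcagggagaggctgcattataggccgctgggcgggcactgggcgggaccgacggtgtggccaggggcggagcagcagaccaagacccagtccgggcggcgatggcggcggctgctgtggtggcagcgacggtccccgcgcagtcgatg
Nr1d1, upstream start, chr10:84231763-84232062, minus strand: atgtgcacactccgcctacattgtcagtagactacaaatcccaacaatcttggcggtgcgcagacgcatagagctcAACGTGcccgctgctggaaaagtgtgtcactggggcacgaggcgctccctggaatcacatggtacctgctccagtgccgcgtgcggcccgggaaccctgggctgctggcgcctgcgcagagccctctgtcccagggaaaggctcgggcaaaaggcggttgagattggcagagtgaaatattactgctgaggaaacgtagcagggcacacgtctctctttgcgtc
Nr1d1, downstream start, chr10:84229405-84229704, minus strand: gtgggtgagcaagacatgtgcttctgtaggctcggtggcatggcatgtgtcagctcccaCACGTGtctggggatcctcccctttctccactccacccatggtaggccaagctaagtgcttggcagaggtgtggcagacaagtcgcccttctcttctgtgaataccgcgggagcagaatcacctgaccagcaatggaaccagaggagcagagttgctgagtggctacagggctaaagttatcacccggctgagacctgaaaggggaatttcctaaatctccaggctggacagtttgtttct
Positions count the first letter of the match back from the transcript start, where -1 is the base just before it. The RORE core of Arntl lay at -16, the D-box of Per2 at -192 and its E'-box at -62. Cry2 held an E'-box, read as its reverse complement, at -212. Nr1d1 held a reverse-complement E'-box at -174 of the upstream start and an E-box at -191 of the downstream start. Over all 33469 RefSeq windows of this length, the share with a match was 6.42% for the E-box, 4.83% for the E'-box, 3.66% for the D-box, 2.63% for the RORE core and 1.83% for the CRE, which was in none of the 11 windows. A match is a string of letters in the window, not a shown binding site.

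Levels are given as scaled TPM-type values, the deposited values divided by a scaling factor per muscle. That they are corrected for transcript length was inferred from their equal total in every muscle and is not stated in the sources used here, so the order of levels between genes holds only if they are. By the median of the 12 contralateral muscles, Nr1d1 stood highest at 44.5, followed by Nr1d2 at 18.8, Arntl at 9.95, Cry2 at 8.01, Clock at 6.08, Cry1 at 5.28, Per1 at 4.86, Per3 at 2.69, Per2 at 1.97 and Npas2 at 0.976. Among neighbours in this order, Nr1d2 and Arntl did not overlap over the 12 muscles (14.3 to 28.7 against 1.90 to 13.5), and all other neighbours did. The spread of a gene over the contralateral muscles differed widely between members. The highest contralateral muscle held 11.1 times the lowest for Npas2, the member with the lowest values, 7.11 times for Arntl, 5.57 times for Per1, 4.94 times for Per2 and 4.67 times for Nr1d1, but 1.37 times for Cry2. The plot of the 10 genes by muscle shows all 24 values of each.

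**Figure D1:**
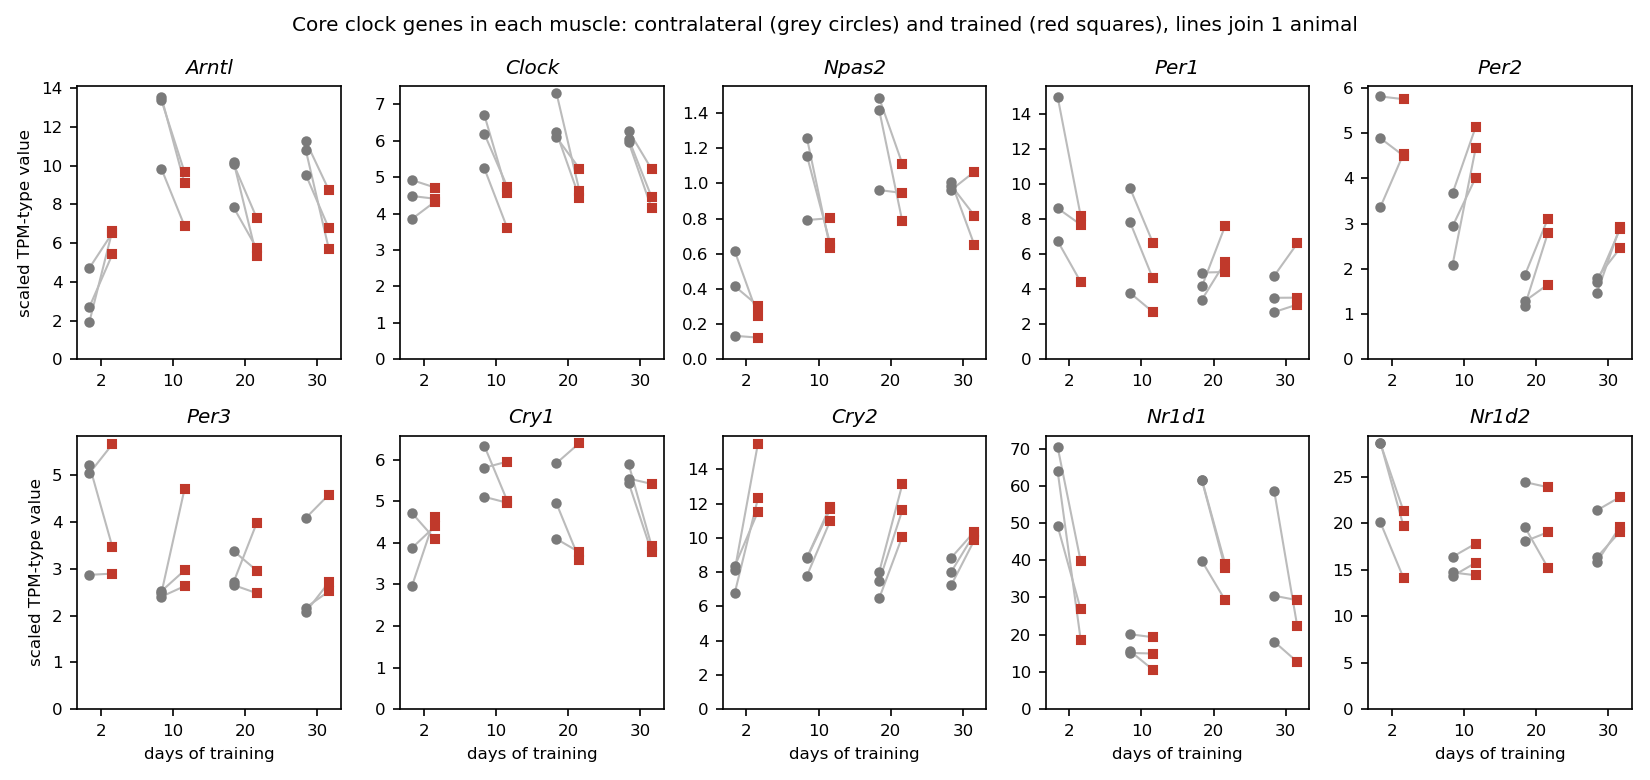
Scaled TPM-type value (y axis, linear, from 0) of each core clock gene in each muscle by days of training (x axis). Grey circles are contralateral and red squares trained muscles, and lines join the muscles of 1 animal, 3 animals a day. Cry2 was higher and Nr1d1 lower in the trained muscle of all 12 animals, while Arntl was higher in the 3 trained muscles at 2 days and lower in the 9 later ones.

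The 24 libraries were whole muscle. The summed level of 7 muscle fibre markers lay between 77784 and 89915 in the contralateral and between 58004 and 95289 in the trained muscles. Markers of other cells moved with training: 4 or 5 of 5 macrophage markers and 3 or 4 of 4 fibroblast markers rose on each day. By the same threshold, given below, 21.6%, 20.1%, 17.4% and 12.3% of all genes passed in either direction at 2, 10, 20 and 30 days. The summed macrophage level ran from 2.28 to 8.53 in the contralateral and from 8.63 to 24.2 in the trained muscles, and the fibroblast level from 52.2 to 169 and from 155 to 509, with no marker at 0 in all muscles. Their part in the differences of the clock genes was not tested, and in whole muscle fewer cells of a type and less RNA per cell cannot be told apart. Mitochondrially encoded transcripts took 43.7% of the values in the contralateral muscle of animal 1 at 30 days and 27.8% to 34.6% in the other contralateral muscles. Among the trained muscles they took 23.4% to 28.5% at 2 and 10 days, 31.1% to 35.5% at 20 days and 39.9% to 43.9% at 30 days.

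Differences between trained and contralateral muscles are log2 differences of value + 1 with their standard error (SE), from a limma fit with the animal as a block. A gene passed where the p-value of limma's moderated test, adjusted by Benjamini-Hochberg over all 11196 genes, was under 0.05. After 2 days 5 of the 10 members passed, 2 higher (Arntl and Cry2) and 3 lower (Per1, Nr1d1 and Nr1d2), against 21.6% of all genes tested. After 10 days 4 passed, with Per2 and Cry2 higher and Clock and Per1 lower (20.1% of all genes). After 20 days 4 passed, with Per2 and Cry2 higher and Arntl and Clock lower (17.4% of all genes). After 30 days Per2 alone passed, higher, a share near the 12.3% of all genes. The median difference of the members was -0.04, -0.15, -0.11 and 0.04 at 2, 10, 20 and 30 days, and that of all genes lay between -0.03 and -0.01. Averaged over the 4 days, 5 of 10 members passed, Per2 and Cry2 higher and Clock, Npas2 and Nr1d1 lower, against 43.4% of all genes. Npas2, Per3 and Cry1 passed on no single day, and the other members passed on at least 1 day. The share of all genes that passed on at least 1 day was not counted.

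**Figure D2:**
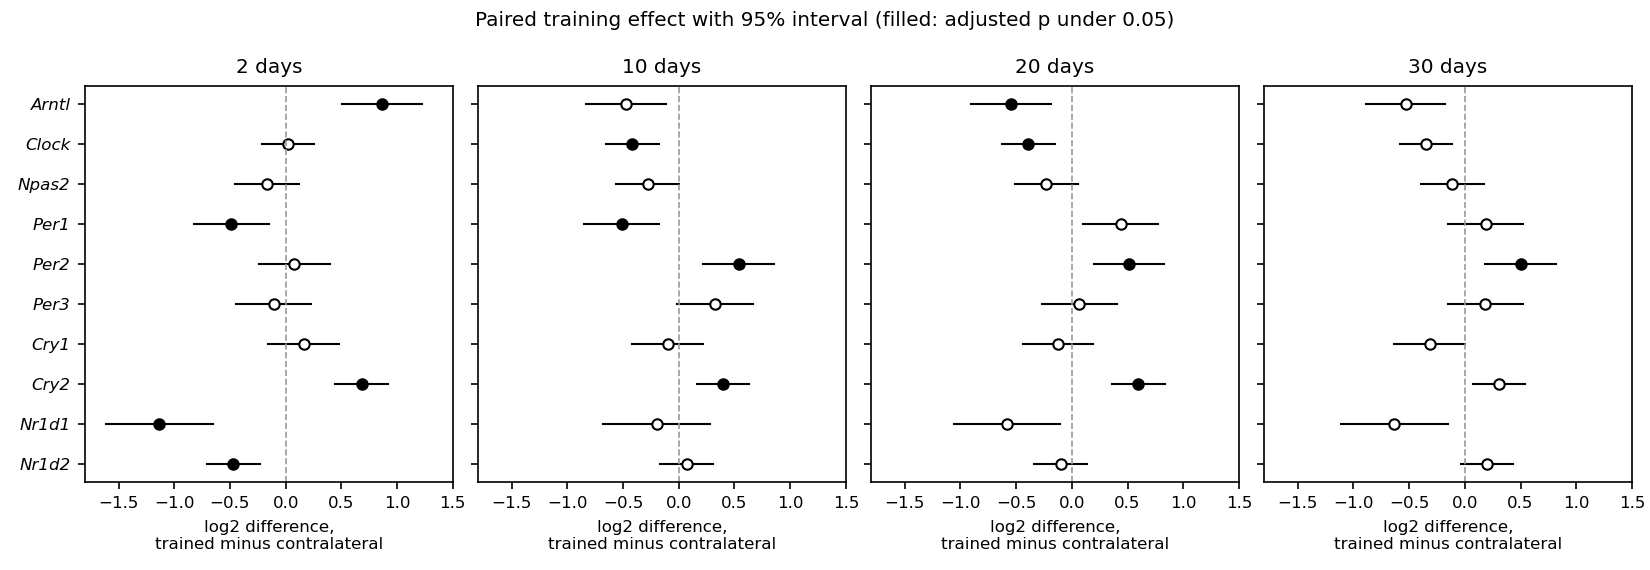
Log2 difference of trained minus contralateral muscle (x axis, on value + 1) for each core clock gene (y axis) after 2, 10, 20 and 30 days. Points are limma estimates from 3 animals a day, bars are 95% intervals, and filled points had an adjusted p under 0.05. Arntl stood at 0.87 at 2 days and between -0.55 and -0.47 on the later days, and the interval of Cry2 lay above 0 on all 4 days.

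Arntl (Rnor_6.0 chr1:178039063-178137466, plus strand) encodes BMAL1, the partner that CLOCK and NPAS2 share. Its contralateral values were 2.68, 4.70 and 1.90 at 2 days, 9.83, 13.5 and 13.4 at 10 days, 10.1, 10.2 and 7.84 at 20 days and 9.53, 11.3 and 10.8 at 30 days. Its trained values were 5.42, 6.52 and 6.64 at 2 days, 6.89, 9.08 and 9.66 at 10 days, 7.29, 5.32 and 5.72 at 20 days and 6.75, 8.73 and 5.68 at 30 days. Trained and contralateral values did not overlap on any day, as for 35.5%, 34.6%, 31.9% and 28.6% of all genes at 2, 10, 20 and 30 days, and the side changed: the trained muscles were the higher ones at 2 days and the lower ones on every later day. The low group was the contralateral muscles of 2 days, whose 3 values lay under all other Arntl values in the study. Trained muscles varied less over the whole course, by 1.82 times from lowest to highest. The log2 difference was 0.87 (SE 0.17, adjusted p = 0.00243) at 2 days. It was -0.47 (SE 0.17, adjusted p = 0.0618) at 10 days, -0.55 (adjusted p = 0.0376) at 20 days and -0.53 (adjusted p = 0.0533) at 30 days. The 2-day rise kept its call without any 1 of the 12 animals, with adjusted p from 0.00214 to 0.0369. The 20-day call was lost without animal 1 (adjusted p = 0.0956), 2 (0.246) or 3 (0.0732) of that day. It was also lost with a pseudocount of 0.1 and without the block, against muscles of the same day or the 12 pooled contralateral muscles. Without animal 2 or 3 of 2 days, the differences passed at 10 days (adjusted p = 0.0355 and 0.0309) and at 30 days (0.0306 and 0.0276).

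Clock (Rnor_6.0 chr14:34446616-34502219, plus strand), the usual partner of BMAL1 and a histone acetyltransferase, was lower in the trained muscle from 10 days on. The contralateral values were 4.92, 3.86 and 4.48 at 2 days, 5.25, 6.72 and 6.20 at 10 days, 7.32, 6.23 and 6.10 at 20 days and 6.05, 5.97 and 6.28 at 30 days. Trained values were 4.71, 4.33 and 4.41, then 3.60, 4.56 and 4.73, then 4.62, 4.43 and 5.23, and at 30 days 4.45, 4.14 and 5.22. The groups overlapped at 2 days and did not on the later days. Non-overlap held for 34.6%, 31.9% and 28.6% of all genes at 10, 20 and 30 days. The trained muscles were lower in all 9 animals of the later days, as were 9.07% of all genes. The difference was 0.02 (SE 0.11, adjusted p = 0.917) at 2 days, -0.41 (adjusted p = 0.0162) at 10 days, -0.39 (adjusted p = 0.0261) at 20 days and -0.35 (adjusted p = 0.0552) at 30 days. Averaged over the 4 days it fell by 0.28 (SE 0.05, adjusted p = 9.08e-04), a call that held without any 1 animal. The 10-day call was lost without animal 1 (adjusted p = 0.0860) or 2 (0.0921) of that day, and the 20-day call without animal 1 (0.195) or 2 (0.118) of 20 days. Counting only the Clock transcript with the highest mean also ended the 10-day call, and on the values as deposited both calls were lost. Against the 12 pooled contralateral muscles the 20-day call was lost.

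Npas2, the paralogue that can stand in for CLOCK, was the least abundant member and reached a value of 1 in 7 of the 24 muscles, 5 contralateral and 2 trained. Its values ran from 0.133 to 1.49 in the contralateral and from 0.123 to 1.11 in the trained muscles, and the groups overlapped on all 4 days. The trained muscle was lower in 10 of 12 animals. No single day passed, with differences from -0.28 at 10 days (adjusted p = 0.160) to -0.11 at 30 days (adjusted p = 0.636). The mean over the days was -0.20 (SE 0.07, adjusted p = 0.0276), which was lost without animal 2 of 2 days (0.0666), animal 2 (0.0599) or 3 (0.0683) of 10 days, animal 1 (0.0686) or 2 (0.0505) of 20 days, or animal 3 of 30 days (0.0613). It was also lost on the values as deposited, with an intensity trend and against the 12 pooled contralateral muscles. At the low values of Npas2 the pseudocount of 1 makes the log2 difference smaller than the ratio, whose geometric mean over the 12 animals was 0.719.

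The Period genes encode the repressors that pair with the CRY proteins. Per2 (Rnor_6.0 chr9:98555169-98597360, minus strand) was higher in the trained muscle from 10 days on. The contralateral values of Per2 were 5.81, 3.37 and 4.89 at 2 days, 2.09, 2.94 and 3.67 at 10 days, 1.28, 1.18 and 1.85 at 20 days and 1.46, 1.80 and 1.70 at 30 days. Trained values were 5.75, 4.54 and 4.50 at 2 days, 4.67, 4.02 and 5.13 at 10 days, 1.65, 2.79 and 3.11 at 20 days and 2.93, 2.45 and 2.88 at 30 days. Trained and contralateral values did not overlap at 10 and 30 days, as for 34.6% and 28.6% of all genes, and overlapped at 2 and 20 days. The trained muscle was the higher one in 9 of 9 animals of the later days, as for 11.1% of all genes. The rises were 0.54 (SE 0.15, adjusted p = 0.0201) at 10 days, 0.51 (adjusted p = 0.0293) at 20 days and 0.50 (adjusted p = 0.0419) at 30 days, against 0.08 (adjusted p = 0.749) at 2 days. The mean over the 4 days was 0.41 (SE 0.07, adjusted p = 5.46e-04) and held without any 1 animal.

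The calls of Per2 on single days rested on few animals. The 10-day call was lost without animal 1 of that day (0.37, adjusted p = 0.191), and the 20-day call without animal 2 (0.221) or 3 (0.0988) of 20 days. The 30-day call was lost without animal 1 (adjusted p = 0.187), 2 (0.0824) or 3 (0.147) of 30 days, and came to 0.0508, 0.0502 and 0.0535 without animal 3 of 2, 10 and 20 days. On the values as deposited, without the scaling factor, the 20-day and 30-day calls were also lost. The same 2 calls were lost without the block, against muscles of the same day or the 12 pooled contralateral muscles.

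Per1 (Rnor_6.0 chr10:55687050-55695995, plus strand), which many signals including cAMP induce quickly, fell at 2 and 10 days. The contralateral values were 8.64, 15.01 and 6.76 at 2 days, 7.87, 9.82 and 3.81 at 10 days, 3.42, 4.17 and 4.95 at 20 days and 4.76, 2.70 and 3.51 at 30 days. Trained values were 7.69, 8.19 and 4.42, then 4.62, 6.66 and 2.70, then 5.55, 7.62 and 4.99, and at 30 days 6.62, 3.13 and 3.52. Within the pairs, Per1 was lower in all 6 trained muscles of 2 and 10 days and higher in all 6 of 20 and 30 days, in animal 3 of both days by ratios of only 1.007 and 1.002. The groups overlapped on every day but 20 days, when 31.9% of all genes did not overlap. The fall was 0.49 (SE 0.16, adjusted p = 0.0391) at 2 days and 0.51 (adjusted p = 0.0340) at 10 days, whereas the difference was 0.44 (adjusted p = 0.0711) at 20 days and 0.19 (adjusted p = 0.480) at 30 days. This 2-day call was lost without animal 2 (-0.33, adjusted p = 0.319) or 3 (0.147) of 2 days or animal 2 of 30 days (0.0505). The 10-day call was lost without animal 1 (0.183), 2 (0.112) or 3 (0.0698) of 10 days, and the 20-day difference passed without animal 3 of that day (0.65, adjusted p = 0.0263). Both calls were also lost on the values as deposited, in the gene-level table, with the block as a random effect (adjusted p = 0.224 and 0.212), without the block against muscles of the same day (0.323 and 0.311) and, at 2 days, with a pseudocount of 0.1 (0.0550).

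Per3, a Period paralogue that the loop can do without, did not pass on any day. Its values ran from 2.08 to 5.23 in the contralateral and from 2.48 to 5.67 in the trained muscles. The groups overlapped on every day but 10 days, when 34.6% of all genes did not overlap. The differences ran from -0.11 at 2 days (95% interval -0.45 to 0.23) to 0.32 at 10 days (-0.01 to 0.66). The mean over the days was 0.12 (adjusted p = 0.249).

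The Cryptochromes encode the repressors that act on the CLOCK and BMAL1 pair itself. Cry2 (Rnor_6.0 chr3:81314149-81344111, minus strand) held the narrowest contralateral range of the members. The contralateral values were 6.80, 8.14 and 8.35 at 2 days, 7.80, 8.86 and 8.83 at 10 days, 7.46, 7.998 and 6.47 at 20 days and 8.85, 8.03 and 7.25 at 30 days. Trained values were 12.3, 15.5 and 11.5 at 2 days, 10.98, 11.8 and 11.7 at 10 days, 11.6, 13.1 and 10.1 at 20 days and 10.4, 10.2 and 9.88 at 30 days. All 12 trained muscles lay above all 12 contralateral muscles, which held for 2.93% of all genes tested, while 8.45% were higher in all 12 pairs. The trained muscle held 1.46 times the value of its own contralateral muscle by geometric mean, with ratios from 1.17 to 1.90 over the animals. The rise was 0.68 (SE 0.11, adjusted p = 7.50e-04) at 2 days, 0.40 (adjusted p = 0.0208) at 10 days and 0.60 (adjusted p = 0.00233) at 20 days, and the difference at 30 days was 0.31 (adjusted p = 0.0863). The 10-day call was lost without animal 1 (0.110), 2 (0.0804) or 3 (0.0716) of 10 days. In the authors' gene-level table the 10-day and 20-day calls were lost (0.35 and 0.27, adjusted p = 0.0860 and 0.173). Averaged over the days Cry2 rose by 0.50 (SE 0.05, adjusted p = 7.98e-06), and this call held without any 1 animal and under every other setting tried.

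Cry1 did not pass on any day. Its values ran from 2.97 to 6.34 in the contralateral and from 3.59 to 6.40 in the trained muscles. The groups overlapped except at 30 days, where all 3 trained values were lower and 28.6% of all genes did not overlap. The differences were 0.16 (95% interval -0.16 to 0.48) at 2 days, -0.10 at 10 days, -0.12 at 20 days and -0.32 (-0.63 to 0.00, adjusted p = 0.190) at 30 days.

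Nr1d1 and Nr1d2 encode REV-ERB alpha and beta, the repressors of Arntl. Nr1d1 (Rnor_6.0 chr10:86683875-86690816, minus strand) was lower in the trained muscle of all 12 animals, as were 6.57% of all genes. The contralateral values were 64.0, 49.2 and 70.5 at 2 days, 15.1, 20.1 and 15.6 at 10 days, 39.7, 61.5 and 61.5 at 20 days and 30.5, 18.1 and 58.7 at 30 days. Trained values were 18.6, 26.8 and 39.7 at 2 days, 14.9, 19.3 and 10.6 at 10 days, 29.3, 39.1 and 38.0 at 20 days and 29.3, 12.7 and 22.3 at 30 days. Trained and contralateral values did not overlap at 2 and 20 days, as for 35.5% and 31.9% of all genes, and at 10 days both muscles were low. The trained to contralateral ratio was 0.634 by geometric mean over the 12 animals. The fall was 1.13 on the log2 scale (SE 0.22, adjusted p = 0.00274) at 2 days, and it held without any 1 animal. This call was lost in the gene-level table and against the 12 pooled contralateral muscles. The differences were -0.20 (adjusted p = 0.579) at 10 days, -0.58 (adjusted p = 0.0893) at 20 days and -0.63 (adjusted p = 0.0818) at 30 days. The 20-day difference passed without animal 3 of 30 days (adjusted p = 0.0409) and the 30-day difference without animal 1 of that day (-0.92, adjusted p = 0.0381). The mean over the days fell by 0.64 (SE 0.11, adjusted p = 4.09e-04) and held without any 1 animal.

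Nr1d2 (Rnor_6.0 chr15:8730871-8757166, plus strand) fell in the trained muscle at 2 days. The contralateral values were 28.6, 20.1 and 28.7 at 2 days, 16.4, 14.7 and 14.3 at 10 days, 18.05, 19.6 and 24.4 at 20 days and 15.8, 16.4 and 21.4 at 30 days. Trained values were 21.3, 14.1 and 19.7, then 17.8, 14.4 and 15.7, then 19.04, 15.2 and 23.9, and at 30 days 19.6, 19.1 and 22.8. The groups overlapped on all 4 days, although within pairs the trained muscle was lower in 3 of 3 animals at 2 days and higher in 3 of 3 at 30 days. The fall at 2 days was 0.47 (SE 0.11, adjusted p = 0.00837), and the later differences were 0.07, -0.10 and 0.20, none of which passed (adjusted p from 0.273 to 0.692). The 2-day call was lost without animal 2 (adjusted p = 0.0583) or 3 (0.0638) of that day and on the values as deposited. It was also lost in the gene-level table and without the block, against muscles of the same day or the 12 pooled contralateral muscles. Over the other settings the difference came as near 0 as -0.09, and the adjusted p of the moderated test reached 0.744.

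Whether the training effect differed between the days was tested with an F test over the 4 differences and with the 6 contrasts between days. Arntl alone of the 10 members passed the F test (adjusted p = 0.0214), which 1.14% of all genes did. Its effect was lower by 1.41 (SE 0.23, adjusted p = 0.0146) at 20 days and by 1.40 (adjusted p = 0.0111) at 30 days than at 2 days, contrasts that 1.73% and 2.80% of all genes passed. The contrast of 10 with 2 days was -1.34 (adjusted p = 0.0665), and the contrasts among the 3 later days lay between -0.07 and 0.01. Without animal 3 of 2 days the F test no longer passed (adjusted p = 0.103), nor did it with a pseudocount of 0.1 (0.0643) or against the 12 pooled contralateral muscles (0.866). Nr1d2 differed between 30 and 2 days by 0.67 (SE 0.16, adjusted p = 0.0389) but did not pass the F test (adjusted p = 0.115). For Per1 the F test gave an adjusted p of 0.0691, which fell to 0.0335 without animal 1 of 2 days and to 0.0483 without animal 3 of 20 days. The effects of Clock, Npas2, Per2, Per3, Cry1, Cry2 and Nr1d1 were not shown to differ between days (adjusted p of the F test from 0.289 to 0.923). Over the 9 animals of 10, 20 and 30 days, a mean added after the data were seen, Arntl was lower in 9 of 9 trained muscles by 0.52 (SE 0.10, adjusted p = 8.62e-04), as were 9.07% of all genes in each of the 9 pairs, and 6 members passed against 38.5% of all genes.

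The muscles of each side were then compared between days on their own. Among the contralateral muscles, Arntl alone of the 10 members passed the F test between days (adjusted p = 0.0190), where 7 of 10517 genes, or 0.0666%, passed. Its 3 values at 2 days, the lowest of the 12, set that day apart from the others. Without the contralateral muscle of animal 1 (adjusted p = 0.148) or 3 (0.105) of 2 days, 2 of 10 days (0.0633), or 1 (0.0601) or 3 (0.0513) of 30 days, the call was lost. Per2, whose 2-day contralateral values included the 2 highest, gave an adjusted p of 0.0996, which came to 0.0344 without animal 2 of 2 days and 0.0487 without animal 1 of 10 days. Nr1d1 gave 0.144, and 0.0379 without animal 3 of 30 days. Among the trained muscles, a comparison added after the data were seen, Per2 (adjusted p = 0.0290) and Npas2 (0.0328) passed, as did 4.82% of all genes, and Arntl did not (adjusted p = 0.338). Each day is a separate set of 3 animals, so a difference between days and one between sets of animals cannot be told apart. A difference in the exact clock time of sampling, which is not given for any set, cannot be told apart from these either.

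**Figure D3:**
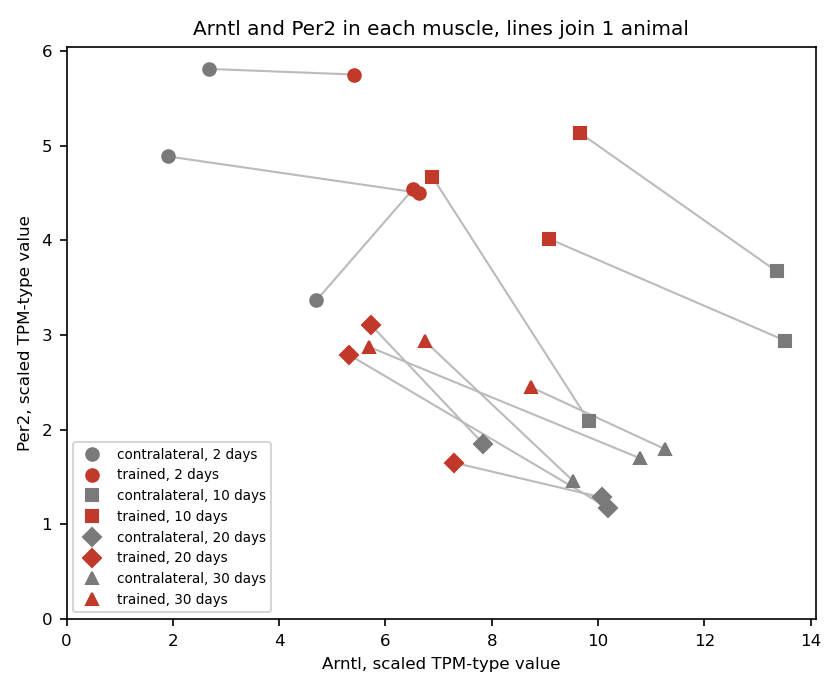
Scaled TPM-type value of Arntl (x axis) and Per2 (y axis) in each of the 24 muscles, with symbols for the day, grey for contralateral and red for trained muscles, and lines joining 1 animal. The 9 lines of 10, 20 and 30 days run from the contralateral muscle to less Arntl and more Per2, and the 3 contralateral muscles of 2 days hold Arntl values between 1.90 and 4.70.

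The choice of control set the sign of the difference for some members. When the 12 contralateral muscles were pooled into 1 control group without the animal block, the Arntl difference at 2 days was -0.30 (SE 0.35, adjusted p = 0.546) in place of 0.87, and at 10 days 0.10 (adjusted p = 0.869) in place of -0.47. The 2-day difference of Per1 became 0.19 (adjusted p = 0.702) in place of -0.49. The Nr1d1 difference at 2 days shrank to -0.42 (adjusted p = 0.475) and that at 10 days grew to -1.27 (adjusted p = 0.0223). Per2 passed at 2 days with 0.79 (adjusted p = 0.0243) and stood at 0.01 at 20 days and 0.13 at 30 days. Cry2 moved little, with 0.66, 0.49, 0.50 and 0.33 at 2, 10, 20 and 30 days, each of which passed. Of the means over the days, that of Nr1d1 (-0.64) no longer passed (adjusted p = 0.0536), and those of Clock, Per2 and Cry2 did. The 2 sets of differences share the trained muscles and, in part, the controls.

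**Figure D4:**
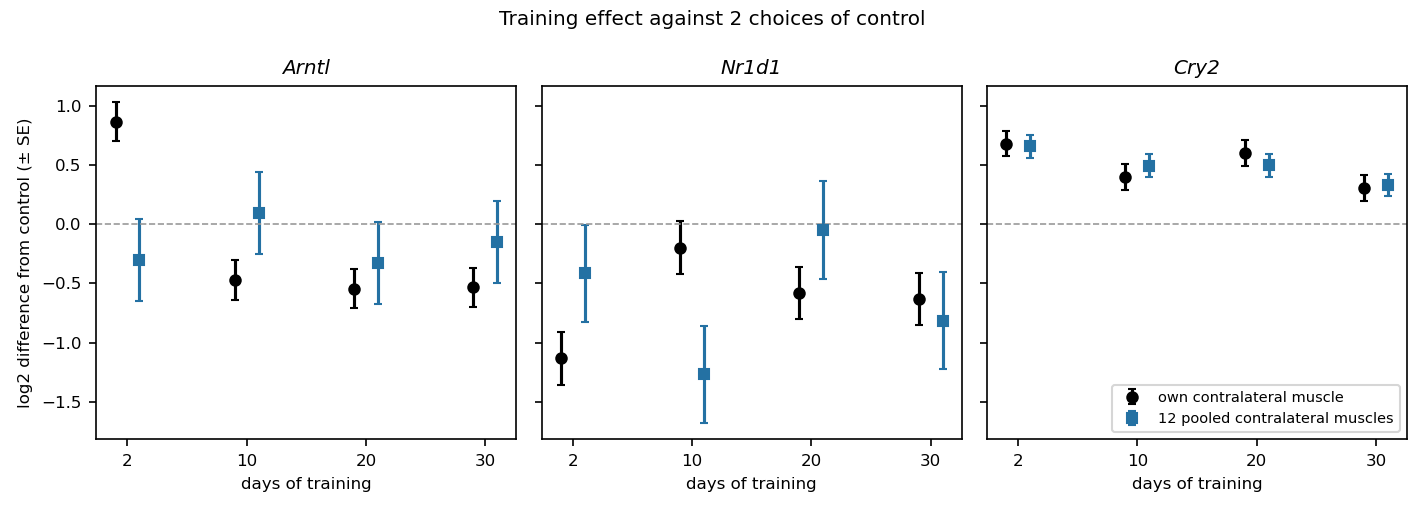
Log2 difference of the trained muscles from control (y axis, on value + 1) by days of training (x axis) for Arntl, Nr1d1 and Cry2. Black circles use the animal's own contralateral muscle and blue squares all 12 contralateral muscles as 1 group, and bars are SE from each limma fit. For Arntl at 2 days the value is 0.87 against the own and -0.30 against the pooled control, and for Cry2 it lies above 0 in both on all 4 days.

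The relation between members was examined over the contralateral muscles, in 6 pairs chosen for their place in the loop. Over all 12 muscles Arntl gave Pearson's r = -0.639 with Nr1d1, 0.866 with Npas2 and 0.765 with Clock (adjusted permutation p = 0.0322, 0.00291 and 0.0128). Arntl split these muscles into the low values of 2 days and the higher later values, which these r include. Its pairs are therefore also given within the 9 muscles of 10, 20 and 30 days, a subset added after the data were seen. There Arntl and Nr1d1 gave Pearson's r = -0.587 (exact permutation p = 0.103, adjusted 0.310, two-sided) and Spearman's rho = -0.333 (exact permutation p = 0.385). Arntl and Npas2 gave r = 0.290 (exact permutation p = 0.446) and Arntl and Clock r = 0.238 (exact permutation p = 0.550), with rho = 0.433 and 0.367. In the planned setting, all 12 muscles centred within each day, Arntl and Npas2 gave r = 0.660 (adjusted permutation p = 0.0555) and rho = 0.734 (adjusted 0.0273). Arntl then gave r = -0.0219 with Clock and -0.257 with Nr1d1 (adjusted permutation p = 0.948 and 0.502). Nr1d1 and Nr1d2, the paralogues, gave r = 0.863 (permutation p = 6.00e-04, adjusted 0.00291) and rho = 0.867 (adjusted p = 0.00378) over all 12 muscles. Without the 2 muscles farthest from the median of Nr1d1, r was 0.855, over the 9 later muscles 0.868 (exact permutation p = 0.00315, adjusted 0.0189; rho = 0.733, adjusted 0.187) and, centred within each day, 0.666 (adjusted permutation p = 0.0555). Per1 and Per2 gave r = 0.577 (permutation p = 0.0502, adjusted 0.0602) and rho = 0.601, but r = -0.575 once centred within days. Per2 and Per3 gave r = 0.549 (adjusted permutation p = 0.0637) and rho = 0.294, but r = -0.206 without 2 muscles. The 3 muscles of a day are too few for a correlation of their own.

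Other parts of the loop were read from a list of 21 clock components and modifiers, of which 18 were in the table and 16 were tested. Of the 16, 3 passed at 2 days, 1 higher and 2 lower (21.6% of all genes), and lower values passed for 4 at 10 days (20.1%), 2 at 20 days (17.4%) and 2 at 30 days (12.3%). Their median difference was -0.04, -0.09, -0.16 and -0.10 on the 4 days. Usp2, a deubiquitinase that acts on clock proteins, fell by 0.47 and 0.48 at 2 and 10 days (adjusted p = 0.0160 and 0.0161). Fbxw11, an F-box protein that targets PER proteins for degradation, fell by 0.38, 0.45 and 0.36 at 10, 20 and 30 days (adjusted p = 0.0190, 0.00911 and 0.0397). Gsk3a, a kinase, fell by 0.37 at 10 days (adjusted p = 0.0480) and by 0.43 at 30 days (adjusted p = 0.0346).

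The clock output factors, 7 genes that carry the rhythm to other genes, were all tested. At 2 days 1 rose and 1 fell (21.6% of all genes passed), at 10 days 3 rose (20.1%), and at 20 and 30 days 2 rose and 1 fell (17.4% and 12.3%), with list medians of -0.25, 0.48, 0.24 and 0.16. Ciart, also called Chrono, a repressor of the CLOCK and BMAL1 pair, was higher in the trained muscle of all 12 animals, as were 8.45% of all genes. Its contralateral values were 3.38, 4.93 and 3.91 at 2 days and between 0 and 1.05 in the 9 later muscles, against 7.04 to 19.4 at 2 days and 9.68 to 25.4 later in the trained muscles. The rise of Ciart was 1.57, 2.88, 4.28 and 3.35 (SE 0.30, adjusted p from 1.71e-06 to 0.00217). Dbp, a D-box factor driven by E-boxes, had contralateral values of 38.5, 25.8 and 57.4 at 2 days and 4.66 to 11.4 later, against 14.3 to 30.1 and 9.49 to 21.3 in the trained muscles. Dbp fell by 1.02 at 2 days (adjusted p = 7.96e-04) and rose by 0.95, 0.94 and 0.68 at 10, 20 and 30 days (adjusted p = 0.00127, 0.00176 and 0.0170). Hlf, another D-box factor, fell by 0.65 at 20 days and 1.10 at 30 days (adjusted p = 0.0365 and 0.00320).

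Genes induced by muscle activity through CREB and SRF were set beside Per1, which shares the first of these inputs. Of 10 such genes, 9 rose on each of the 4 days, on which 21.6%, 20.1%, 17.4% and 12.3% of all genes passed. The list's median difference was 2.47, 2.39, 2.85 and 2.25, against -0.03 to -0.01 for all genes. Fos, an immediate early gene, rose by 4.00 at 2 days and 3.24 at 30 days, and Ppargc1a, a coactivator of mitochondrial genes, by 0.82 and 1.23 (largest adjusted p = 0.0137). Crem, the remaining gene, did not pass, with differences from -0.02 to 0.12. On the same days Per1 gave -0.49, -0.51, 0.44 and 0.19.

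By the within-animal log2 differences over the 12 pairs, the genes most like each member that passed were ranked among 5865 genes with a mean of at least 5. These are descriptions over 12 pairs that share muscles and days. Arntl was most like Sh3bp5 (Pearson's r = 0.92), Hnrnpa1 (0.90) and Glul (0.89), and Clock like Abcb4 (0.92), Hnrnpdl (0.90) and Vps37a (0.90). Per1 was most like Pgp (0.97), Pkm (0.96) and AABR07044711.1 (0.94), and Per2 like Pm20d2 (0.88), Pdgfrb (0.84) and Col4a2 (0.84). Cry2 was most like Nudt21 (0.83), Tatdn2 (0.83) and Dnaja1 (0.80). Nr1d1 was most like Coro6 (0.89), Smoc2 (0.85) and LOC103692169 (0.85), and Nr1d2 like Clk3 (0.91), AABR07058464.1 (0.89) and Naa30 (0.87).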

How the data were processed

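RNA of tibialis anterior muscle was sequenced from poly-A enriched, strand-specific paired-end libraries. Per the study's methods and the submitters' processing notes, reads were trimmed by the authors in Partek Flow, mapped with STAR to the rat build Rnor_6.0 (rn6) and assigned to Ensembl transcripts, and the authors' notes also name DESeq2. The authors deposited TPM-type values for 20027 transcripts, which add up to 634431 in every sample. The unit was inferred from the values, because of this equal total and their decimals. A correction for transcript length is not given in the sources used here, and the methods name a median-of-ratios normalization that equal totals do not show. The depth of each muscle cannot be read from such values, and the methods give only a minimum over all libraries. The authors also deposited a gene-level signal table of 4635 genes, normalized by steps not given in the sources used here, which holds 4 of the 10 members and served as an alternative. Another table with the authors' own p-values and ratios was not used.

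Values were divided by median-of-ratios factors (0.778 to 1.14, from 16230 transcripts above 0 in all muscles) and summed by gene symbol. Of 15273 symbols, 62 covered several gene IDs. A gene had to reach 1 in 3 or more muscles, which left 11196 genes. Limma 3.58.1 (R 4.3.3) modelled log2(value + 1) of all 24 muscles together, with animal as a fixed block and 8 residual degrees of freedom. The moderated test was adjusted by Benjamini-Hochberg within each comparison at 0.05. Such differences understate the change of low genes. Muscles of 1 side were compared between days in fits of 12 muscles (10517 genes for the contralateral side). Correlations used 100000 permutations, or all orders for 9 muscles, adjusted over 6 pairs (Python 3.11.15, scipy 1.17.1, numpy 2.4.6, pandas 2.3.3, matplotlib 3.10.9). The fit was tested on simulated data.

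The labels pair the muscles by animal. Deviations from the group means correlated by a median of 0.174 between the muscles of an animal (0.0277 to 0.343, 8 of 12 over 0.1) and of -0.100 between other animals of a day. None of 276 library pairs were identical (0 found). Replicates are separate animals. The series' design text gives a larger number of animals per time point than the samples used here.

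The named genes were all 10 members, genes of the 3 fixed lists past the threshold on at least 2 days, and the 3 genes most like each member that passed. One list gene that met this rule is not reported here. The members and lists were chosen with earlier results of these data known. Markers of other cell types were counted alike: endothelial, satellite cell, smooth muscle and pericyte, Schwann cell, red blood cell and adipocyte lists had at most 1 gene past the threshold on any day, and the muscle fibre list had up to 2 higher and 3 lower. Between 12.3% and 21.6% of all genes passed on a day. Alternatives were values as deposited, a pseudocount of 0.1, no filter, an intensity trend, other controls and blocks, the transcript with the highest mean, the gene-level table, thresholds of 0.01 and leaving out each animal.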

Additional observations from a re-analysis of the deposited data

Results flagged for a closer look

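Some contrasts of training effects between days passed the test of the difference, and others are given because all 3 pairs of one day moved against all 3 of the other, whether or not the test passed. The Arntl effect at 20 days minus that at 2 days was -1.41 (SE 0.23, adjusted p = 0.0146), the effect at 30 days minus that at 2 days was -1.40 (adjusted p = 0.0111), and the F test of the 4 effects gave an adjusted p of 0.0214. The Arntl effect at 10 days minus that at 2 days was -1.34, with the pairs of the 2 days moving opposite ways and an adjusted p of 0.0665. The Nr1d2 effect at 30 days minus that at 2 days was 0.67 (adjusted p = 0.0389). Per1 was lower in each pair of 2 and 10 days and was higher in each pair of 20 and 30 days, in animal 3 of both by ratios of only 1.007 and 1.002. The contrasts of Per1 were 0.93 for 20 against 2 days (adjusted p = 0.0522), 0.68 for 30 against 2 days (0.112), 0.95 for 20 against 10 days (0.291) and 0.70 for 30 against 10 days (0.247), none past the threshold in limma's moderated test.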

How the results depend on the processing

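Of 416 member effects on single days under other settings, 355 kept their direction and side of the threshold, 40 lost the call, 10 gained one and 11 changed sign. Pooling the controls together with dropping the block turned the most signs. With no replicate block and 12 pooled contralateral muscles, the signs turned for Arntl (-0.30), Clock (-0.29), Per1 (0.19), Per3 (0.28) and Cry1 (-0.16) at 2 days, Arntl (0.10), Cry1 (0.075) and Nr1d2 (-0.27) at 10 days, Npas2 (0.040) at 20 days and Per1 (-0.35) at 30 days. Members passing were then 3 at 2 days, 1 at 20 days, 3 for the mean and 0 for the F test. Of 11196 genes, 3235, 2393, 4500 and 1345 passed these. Without the pairing but with the contralateral muscles of the same day, no sign turned. Members passing were 3, 2 and 0 at 2, 20 and 30 days, against 2196, 1589 and 1121 of 11196 genes. With the block as a random effect 2 members passed at 30 days, against 1550 genes. As deposited, 3, 2, 2 and 0 members passed at 2, 10, 20 and 30 days, against 1791, 1685, 1388 and 838 of 11262 genes. No member changed sign on a single day, and the median of all genes at 2 days moved from -0.02 to 0.09. Of all calls, 79.1%, 77.8%, 51.9% and 41.9% were higher in place of 54.6%, 60.2%, 57.3% and 58.6%. A pseudocount of 0.1 gave 2 members at 30 days and 0 for both F tests, against 1206 and 30 of 11196 genes and 6 of 10517 contralateral. No filter gave 2 at 30 days and 0 among contralateral muscles, against 1312 and 2 of 15273 genes. An intensity trend gave 2 at 30 days, against 1435 of 11196. The gene-level table gave 1, 0, 0 and 0 of its 4 members at 2, 10, 20 and 30 days. Of all its genes, 690, 563, 487 and 461 passed on these days. It gave 2 members for the mean, against 1453 of its genes. It gave 0 members for both F tests, against 128 of its genes and 2 among contralateral muscles. For Nr1d2 at 30 days it gave -0.055. An adjusted p under 0.01 left 0, 1 and 0 members at 10, 20 and 30 days, against 1201, 945 and 532 of 11196 genes. It left 0 for both F tests, against 17 of 11196 and 3 of 10517. An unadjusted p under 0.01 gave 3 at 30 days and 3 for the F test, against 1619 and 716 of 11196. It gave 7 among contralateral muscles, against 307 of 10517. The F test among trained muscles, added after the data were seen, gave 2, against 540 of 11196 genes. The mean of the later days gave 0.038 for Per1 and 0.056 for Nr1d2. Leaving out 1 animal left 3 to 5 members at 2 days, 0 to 5 at 10 days, 1 to 5 at 20 days, 0 to 2 at 30 days, 4 to 6 for the mean and 0 to 2 for each F test. Over all genes it left 957 to 2476 at 2 days, 1222 to 2287 at 10 days, 964 to 1987 at 20 days and 582 to 1414 at 30 days. It also left 4335 to 4749 genes for the mean, and 20 to 340 and 0 to 12 for the F tests. It turned the sign of small effects that had not passed: at 2 days Cry1 (-0.011 to 0.325), Clock (-0.036 to 0.057), Per2 (-0.055 to 0.166) and Per3 (-0.234 to 0.076), and at 20 days Cry1 (-0.234 to 0.0018), Nr1d2 (-0.188 to 0.021) and Per3 (-0.107 to 0.176). By Pearson's r, the number of correlated pairs past the threshold was 4 of 6 over 12 muscles, 1 without the 2 muscles farthest from the median, 0 centred within days (Arntl and Clock -0.0219, Per1 and Per2 -0.575) and 1 over the 9 later muscles, and Per2 and Per3 gave -0.206 and -0.295 in the second and last of these. By Spearman's rho, Arntl with Npas2 and Nr1d1 with Nr1d2 passed when centred within days (adjusted p = 0.0273 for each), and no pair passed over the 9 later muscles. The cause of these changes was not tested. Depth per muscle cannot be read from the values, so no counting error could be set beside the low values of Npas2.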
